A study of Mus musculus with 6 samples.

Results

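The mitochondrial calcium genes described here are 8 genes taken by symbol from a table of 55291 genes: the uniporter subunits Mcu, Micu2 and Smdt1, the outer membrane channels Vdac1, Vdac2 and Vdac3, and the inner membrane exchangers Letm1 and Slc8b1. All 8 were present in the table, and all 8 passed the filter on low values. RNA was sequenced from LLC (Lewis lung carcinoma), a transplantable tumour line of the mouse lung, grown in serum-containing medium with no further treatment. Calr KO cells had received Cas9 with a guide RNA against Calr, the calreticulin gene, on transiently delivered plasmids. Control cells, whose genotype is labelled WT, had received Cas9 with a control guide. After 10 days in culture each population was divided over 3 wells and collected 48 hours later, giving 3 Calr KO and 3 control libraries with 1 batch label. No cloning step is described and the wells of a group share a population, so p-values measure the spread between wells and not between independent knockouts.

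Calcium that leaves the endoplasmic reticulum (ER) through IP3 receptors crosses the outer mitochondrial membrane through voltage-dependent anion channels (VDACs) and the inner membrane through the uniporter complex. MCU forms the pore of that complex, EMRE (encoded by Smdt1) joins the pore to its gatekeepers, and MICU2 is an EF-hand gatekeeper. The exchanger NCLX (encoded by Slc8b1) returns calcium from the matrix in exchange for sodium, so it is known for release and not for uptake. LETM1 is an inner membrane cation-proton exchanger whose main ion is debated. Calreticulin binds much of the calcium stored in the ER lumen, which is the compartment that feeds this route.

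Values are normalised counts, and the 6 libraries summed to between 14040692 and 14099985 of them. Calr had 4467, 4216 and 4453 normalised counts in Calr KO wells and 10711, 10202 and 11047 in control libraries, 2.43-fold lower in Calr KO (limma adjusted p = 7.9e-07), so transcript remained in every Calr KO library. The markers listed for carcinoma cells summed to 40249 to 42618 in Calr KO wells and 43225 to 45803 in control libraries, most of it Vim, a mesenchymal gene (log2 change -0.11, limma adjusted p = 0.28). The keratin gene Krt8 had a log2 change of 0.093 (limma adjusted p = 0.52), and Krt18 had a mean of 294 normalised counts over the 6 libraries. Cdh1 did not pass the filter on low values, and Krt19 and Epcam were listed at 0 in every library. Markers of differentiated lung epithelium summed to between 7.03 and 19.2 in Calr KO wells and between 8.77 and 10.4 in control libraries, and Sftpc, Scgb1a1 and Nkx2-1 were listed at 0. Markers of macrophages summed to 65.1 to 114 in Calr KO wells and 75.5 to 97.1 in control libraries, with Adgre1 at 0. Most of this was Cd68, with a mean of 73.5 over the 6 libraries. Lymphocyte markers summed to 7.16 to 9.74 in Calr KO wells and 0 to 6.22 in control libraries, with Cd3e, Cd4 and Nkg7 at 0. Endothelial markers summed to 46.1 to 60.3 in Calr KO wells and 37.3 to 45.2 in control libraries, with Emcn at 0. Fibroblast markers summed to 1888 to 2198 in Calr KO wells and 1729 to 2194 in control libraries, nearly all of it Pdgfra. The sums of the carcinoma list, which follows Vim, and of the lymphocyte and endothelial lists did not overlap between groups, and their part in the results was not tested.

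The mitochondrial calcium genes had similar mRNA levels in Calr KO and control cells. Of the 8 genes 0 passed the test, in either direction, and 0 had an unadjusted p under 0.05 (limma, Benjamini-Hochberg adjustment over 13199 tested genes, threshold 0.05). Of all tested genes 0.28% passed, and 8.88% had an unadjusted p under 0.05. The log2 changes of the 8 genes lay between -0.092 for Slc8b1 and 0.20 for Letm1, with a median of 0.023, against a median of 0.00036 over all tested genes. Without regard to sign, their median size was 0.060, against 0.086 over all tested genes and 0.061 over the 6559 tested genes within the same range of mean values. The 95% interval held 0 in all 8, and its bounds lay between 0.811-fold (Slc8b1) and 1.32-fold (Letm1), so that 0 of the 8 intervals reached a 1.5-fold difference in either direction. In bulk RNA, a change in the transcript per cell and a change in the share of edited cells cannot be told apart.

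**Figure D1:**
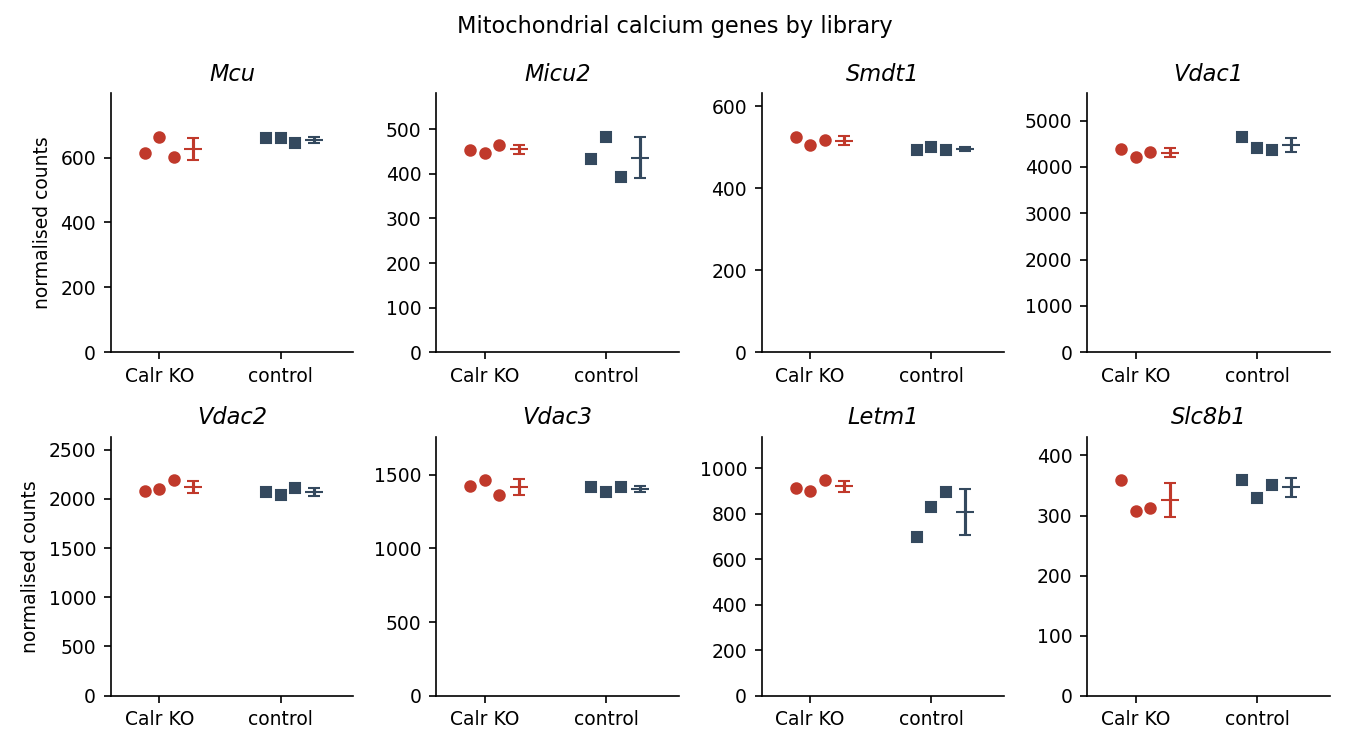
Normalised counts of the 8 genes in each library, with a panel per gene, Calr KO circles left of control squares, and the mean with SD bars (n = 3) beside them; every vertical axis starts at 0. The groups overlap in 6 panels, and in Smdt1 and Letm1 every Calr KO point lies above every control point.

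**Figure D2:**
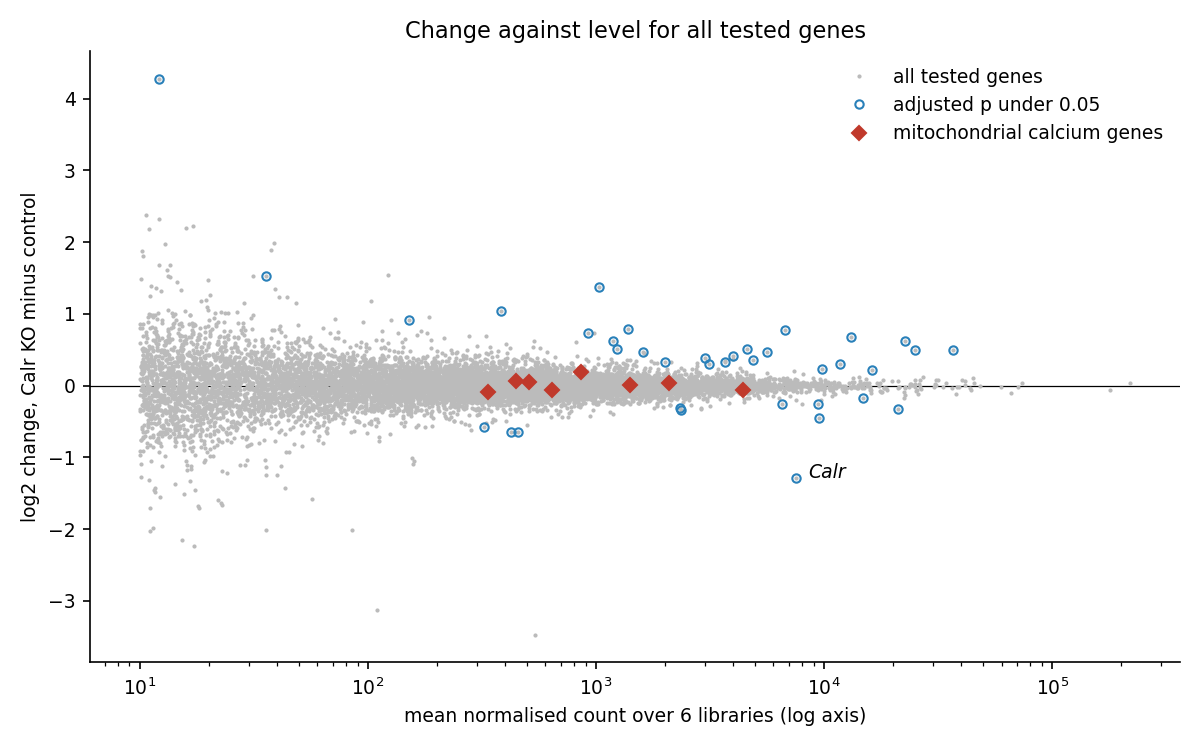
The log2 change (Calr KO minus control) of each of 13199 tested genes against its mean normalised count on a log axis. The 8 mitochondrial calcium genes (diamonds) lie between -0.092 and 0.20, inside the cloud of genes of like level, while Calr lies at -1.28.

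Promoter sequence was read for the members that have an entry in the RefSeq table (GRCm38.p6), 5 of the 8 genes with 6 windows, of which Vdac1 had 2. Each window runs from 250 bases before to 50 bases after the start annotated in RefSeq. That start can differ from the ends of the GENCODE gene spans given below. The upstream bases of Smdt1 and of window 2 of Vdac1 lie inside those spans, and those of Letm1 lie partly inside. Vdac2, Vdac3 and Slc8b1 had no entry. The upstream 250 bases of the pore gene Mcu and of Smdt1 are shown beside those of Hspa5, the gene of the ER chaperone BiP, which rose in the same cells and whose window carries the ER stress response element (ERSE). Bases run 5' to 3' on the strand of the gene, and capitals mark a match to the ERSE or to any of the 4 other elements named after the sequences, leaving out the CCAAT box; Mcu has no such match.
Mcu (chr10:59616693-59616942, minus strand): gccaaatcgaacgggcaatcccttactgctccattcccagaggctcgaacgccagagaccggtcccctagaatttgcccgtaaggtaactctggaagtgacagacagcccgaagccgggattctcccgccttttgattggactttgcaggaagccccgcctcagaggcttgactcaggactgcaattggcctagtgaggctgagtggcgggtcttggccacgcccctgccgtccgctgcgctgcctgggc
Smdt1 (chr15:82345796-82346045, plus strand): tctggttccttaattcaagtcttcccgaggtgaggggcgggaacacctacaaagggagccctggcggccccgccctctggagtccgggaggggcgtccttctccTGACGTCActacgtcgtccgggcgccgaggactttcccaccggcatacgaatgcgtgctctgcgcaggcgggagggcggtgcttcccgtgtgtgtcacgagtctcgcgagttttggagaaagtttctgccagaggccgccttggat
Hspa5 (chr2:34771840-34772089, plus strand): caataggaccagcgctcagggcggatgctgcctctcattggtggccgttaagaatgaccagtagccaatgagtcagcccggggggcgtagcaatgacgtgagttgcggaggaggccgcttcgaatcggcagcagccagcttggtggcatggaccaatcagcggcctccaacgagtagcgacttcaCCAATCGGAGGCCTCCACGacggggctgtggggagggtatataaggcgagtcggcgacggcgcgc

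The ERSE, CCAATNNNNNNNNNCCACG on either strand, is the element through which ATF6 and XBP1 act on chaperone genes. It was in 0 of the 6 windows of the mitochondrial calcium genes and in 0.119% of all 32851 windows. Hspa5 had it at position -65, as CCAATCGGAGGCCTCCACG, with 29688, 27659 and 31030 normalised counts in Calr KO wells and 21288, 19645 and 21362 in control libraries (1.42-fold, limma adjusted p = 0.0014). Hsp90b1 had it at -212 and -107 and was 1.41-fold higher in Calr KO (limma adjusted p = 7.5e-05). Pdia4, a protein disulfide isomerase gene, was 1.71-fold higher (limma adjusted p = 7.5e-05) with no ERSE match in its window. Hspa5, Hsp90b1 and Pdia4 were chosen with their values known, and whether a match goes with a rise was not tested. The core of the unfolded protein response element, TGACGTGG (0.676% of all windows), and of the amino acid response element bound by ATF4, TGATGNAAT (0.965%), were in 0 of the 6. So was the motif of nuclear respiratory factor 1, GCGCANGCGC (4.60%), which many nuclear genes of mitochondrial proteins carry. The cyclic AMP response element, TGACGTCA (1.79% of all windows), was in 1 of the 6, at position -146 of Smdt1. The CCAAT box, which is also the first part of the ERSE (37.4%), was in the windows of Mcu and Letm1. These are matches of letters within a short window and do not measure binding.

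Mcu encodes the pore (ENSMUSG00000009647.13, minus strand of chromosome 10, positions 59446984 to 59616692 in GRCm38 coordinates, as for all genes named here). It had 615, 665 and 602 normalised counts in Calr KO wells and 660, 659 and 645 in control libraries. The Calr KO libraries spanned the control values, with 2 below them and 1 above. The means were 627 ± 33.1 in Calr KO wells and 655 ± 8.27 in control wells (SD, n = 3), a log2 change of -0.063 (95% interval -0.21 to 0.086, limma adjusted p = 0.84). As a percentage the interval runs from -13.7% to 6.18%. With a library left out the log2 change was lowest without Calr KO replicate 2, at -0.11, and highest at -0.034 when Calr KO replicate 3 was omitted. The annotated span of Mcu overlaps that of the gene model Gm10322 on the other strand. Those of Vdac2 and Comtd1, and of Letm1 and Gm10059 and Gm30708, overlap likewise. Spans include introns, and whether these pairs share exons was not examined. Reads of shared exon bases cannot be told apart unless the counting used strand, which no source used here states. Among 10305 other named genes that were tested with a mean of at least 50, those whose centred log2 values lay closest to those of Mcu over the 6 libraries were Tada2a, Pip4k2c and Rpl17. They differed from it by 0.0071, 0.014 and 0.014 log2 units on average, a description of profiles that are themselves nearly flat.

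Smdt1 (ENSMUSG00000022452.16, plus strand of chromosome 15, positions 82338959 to 82349091) had 526, 505 and 517 normalised counts in Calr KO wells and 494, 500 and 493 in control libraries. Every Calr KO library was above every control library, by a narrow margin. The mean was 516 ± 10.5 in Calr KO wells and 496 ± 4.16 in control wells (SD, n = 3), 4.09% higher (log2 change 0.058, 95% interval -0.092 to 0.21, limma adjusted p = 0.86). The groups failed to overlap in 14.8% of all tested genes, and in 7.57% with Calr KO above control, so 2 such genes among 8, Smdt1 and Letm1, is a count set against a high background. The annotated span of Smdt1 also holds Pheta2 on the same strand, which had 36.1 ± 7.56 normalised counts in Calr KO wells and 17.3 ± 4.74 in control wells (SD, n = 3, limma adjusted p = 0.36), and reads of overlapping models can be split between them. The share of Smdt1 reads that this could move was not tested.

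Micu2 (ENSMUSG00000021973.9, minus strand of chromosome 14, positions 57916261 to 57999262) had 453, 447 and 466 normalised counts in Calr KO wells and 433, 484 and 393 in control libraries. The 3 Calr KO values fell inside the range of the controls, which was the wider of both groups. Its log2 change was 0.066 (95% interval -0.14 to 0.27, limma adjusted p = 0.88), and -0.0077 without control replicate 3.

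The outer membrane channels were the most abundant of the 8 genes by count and had the narrowest intervals. Vdac1, the channel that GRP75 tethers to IP3 receptors (ENSMUSG00000020402.11, plus strand of chromosome 11, positions 52360860 to 52389397), had 4398, 4212 and 4318 normalised counts in Calr KO wells and 4655, 4408 and 4360 in control libraries. Calr KO replicate 1 lay above control replicate 3, so the groups overlapped. The log2 change was -0.054 (95% interval -0.14 to 0.031, limma adjusted p = 0.74), and the interval runs from -9.18% to 2.20%. It was -0.025 without control replicate 1, the highest library. By the same measure of likeness as for Mcu, the nearest genes to Vdac1 were Sltm, Cpeb4 and Ttyh3, which differed from it by 0.011, 0.012 and 0.012 log2 units.

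Vdac2, which also restrains the apoptosis effector BAK (ENSMUSG00000021771.14, plus strand of chromosome 14, positions 21825238 to 21845879), had 2079, 2100 and 2192 normalised counts in Calr KO wells and 2069, 2035 and 2110 in control libraries. The log2 change was 0.035 (95% interval -0.061 to 0.13, limma adjusted p = 0.86), with 0.012 when Calr KO replicate 3 was left out and 0.023 for control replicate 2. Vdac3, the least studied paralogue (ENSMUSG00000008892.12, minus strand of chromosome 8, positions 22577075 to 22593813), had 1424, 1464 and 1360 normalised counts in Calr KO wells and 1415, 1381 and 1420 in control libraries. The Calr KO values reached beyond the controls on both sides, and the log2 change was 0.010 (95% interval -0.10 to 0.12, limma adjusted p = 0.97), with a sign that flips to -0.00040 when libraries are scaled to equal upper quartiles. The pseudogene Vdac3-ps1 had 88.6 ± 1.97 normalised counts in Calr KO wells and 103 ± 8.06 in control wells (SD, n = 3, limma adjusted p = 0.71), and reads of this copy and of Vdac3 can be shared.

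Letm1 (ENSMUSG00000005299.6, minus strand of chromosome 5, positions 33739673 to 33782817) had the largest change of the 8 genes. It had 912, 898 and 947 normalised counts in Calr KO wells and 696, 829 and 894 in control libraries. All 3 Calr KO libraries were higher, but control replicate 3 came within a few counts of the lowest of them, and control replicate 1 lay well below the rest. The mean was 919 ± 25.2 in Calr KO wells and 807 ± 101 in control wells (SD, n = 3), 14.5% higher with a log2 change of 0.20 (95% interval -0.0055 to 0.40). The unadjusted p was 0.055 and the limma adjusted p 0.58. Without control replicate 1 the log2 change was 0.094, and over the 6 fits that each leave out a library it lay between 0.094 and 0.27.

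Slc8b1 (ENSMUSG00000032754.14, plus strand of chromosome 5, positions 120511168 to 120534024) was the least abundant of the 8 by count. It had 359, 307 and 312 normalised counts in Calr KO wells and 359, 330 and 351 in control libraries. Calr KO replicate 1 was within a count of the highest control, and the other Calr KO libraries lay below all controls. The log2 change was -0.092 (95% interval -0.30 to 0.12, limma adjusted p = 0.83), a range from -18.9% to 8.48%. Leaving out Calr KO replicate 1 gave -0.16 and leaving out Calr KO replicate 2 gave -0.051, the extremes over the 6 libraries.

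**Figure D3:**
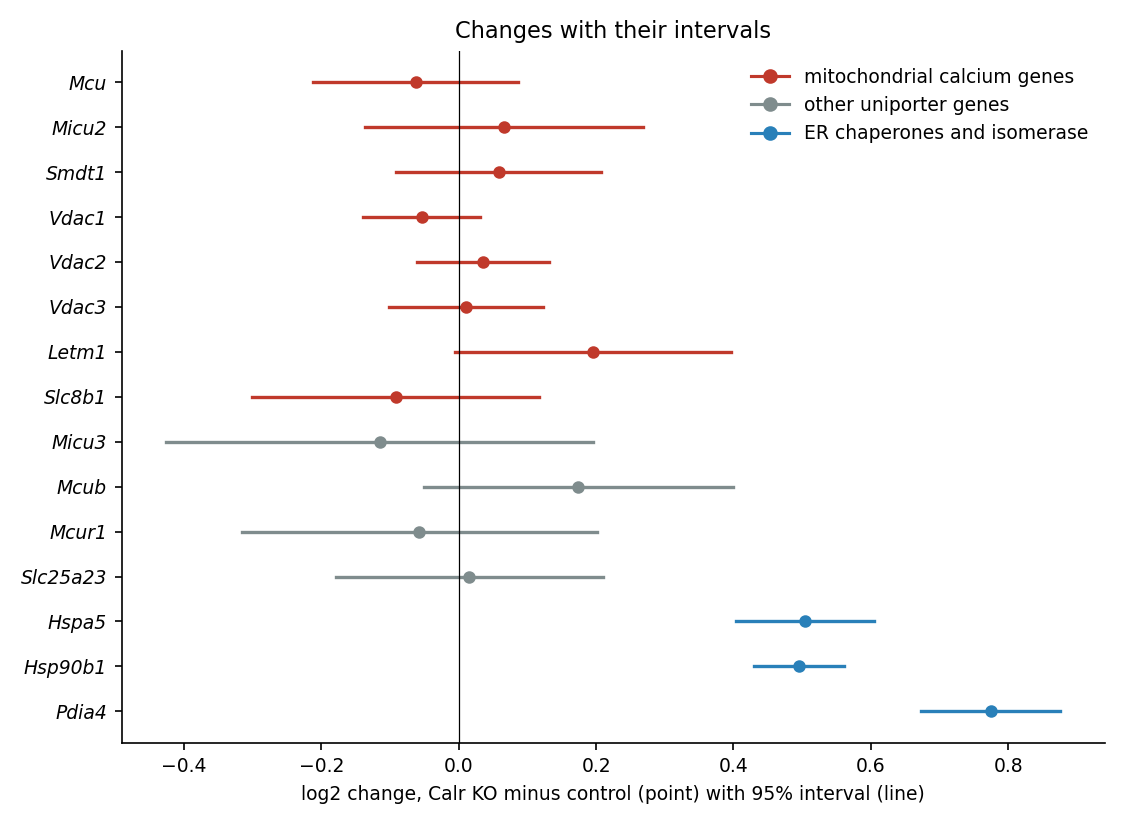
The log2 change (Calr KO minus control, point) and its 95% interval (line) for the 8 genes, for 4 other uniporter genes, and for Hspa5, Hsp90b1 and Pdia4, genes of ER folding factors shown for scale. The 12 lines of the mitochondrial genes all cross 0, while Hspa5, Hsp90b1 and Pdia4 lie at 0.50, 0.50 and 0.77 with intervals clear of 0.

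The spread between wells of a group was close to counting error for some of these genes, above it for others and well below it for Smdt1. Pooled over both groups it was 3.79% for Mcu, where an estimated 641 reads a library give a counting error of 3.95%, and 1.55% for Smdt1, where counting error was 4.44%. For Vdac2 it was 2.36% against 2.18%, and for Vdac3 2.84% against 2.66%. Vdac1 varied by 2.92% against a counting error of 1.51%, Micu2 by 7.52% against 4.74%, and Slc8b1 by 6.79% against 5.45%. Letm1 stood out with 9.25% against 3.40%, most of it in the control wells.

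Per length the channels led. On the scale of normalised counts per kb of coding-transcript exon, levels were 2094 ± 45.3 in Calr KO wells and 2174 ± 76.9 in control wells for Vdac1 (SD, n = 3). Next came Vdac3 with 995 ± 36.9 in Calr KO wells and 994, 970 and 998 in control libraries, Vdac2 with 808 ± 22.8 and 789 ± 14.3, and Smdt1 with 539 ± 10.9 and 517 ± 4.35. Mcu (196 ± 10.3 in Calr KO wells and 204 ± 2.58 in control wells) and Micu2 (195 ± 4.11 and 187 ± 19.6) could not be separated beyond their spread on this length. Letm1 (124 ± 3.40 and 109 ± 13.6) and Slc8b1 (105 ± 9.19 and 112 ± 4.88) closed the order, and in control wells they overlapped on this length. The order rests on the length taken: with the longest coding transcript of each gene Vdac2 came before Vdac3, and with the median coding transcript Smdt1 also came before Vdac3 and Letm1 before Micu2. With either of those lengths the libraries of Mcu lay above those of Micu2, and those of Letm1 above those of Slc8b1, in both groups; for the median transcript Mcu had 317 ± 16.7 in Calr KO wells and 331 ± 4.18 in control wells. Vdac1 was first and Slc8b1 last with all 3 lengths. Of the per-length sum of the VDAC genes, Vdac1 made up 53.7% ± 0.814 in Calr KO wells and 55.0% ± 0.948 in control wells (SD, n = 3). With the median coding transcript these shares were 47.1% ± 0.754 and 48.6% ± 1.01, so the share itself depends on the gene model more than on the group.

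**Figure D4:**
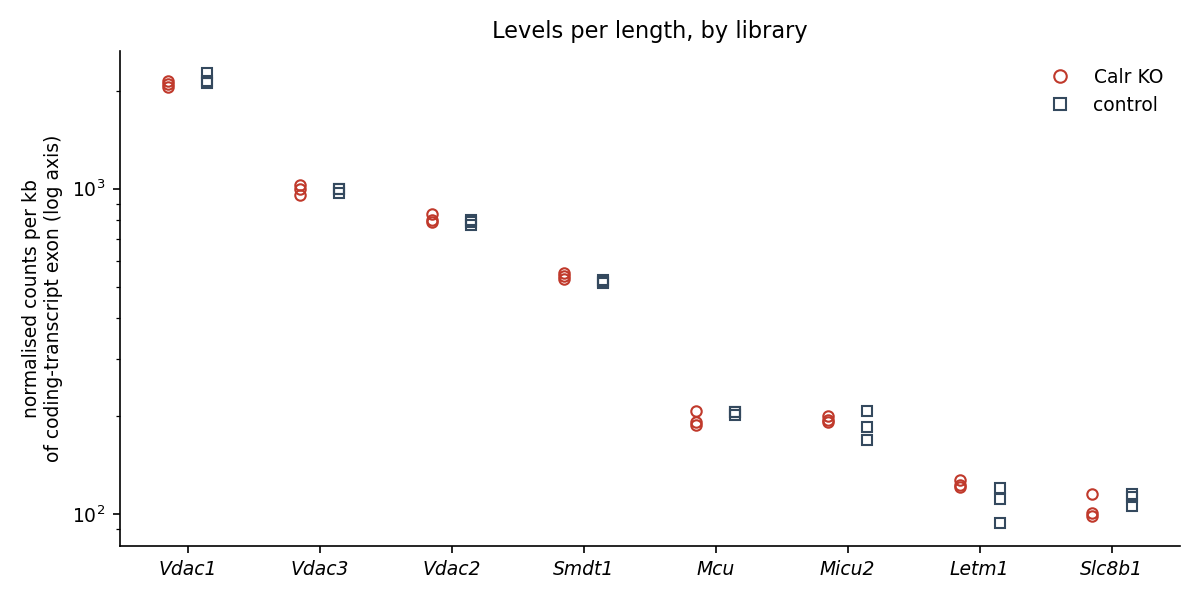
Normalised counts per kb of coding-transcript exon on a log axis, by gene in order of level, with Calr KO circles left of control squares, 1 point a library. Vdac1 leads at 2094 in Calr KO wells and 2174 in control wells on average. The points of both groups lie at nearly the same height for most genes. In Letm1 the control points reach down to 93.8, below Calr KO points of 121 to 128.

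The balance between subunits was compared as ratios within each library, which no scaling of libraries can move. The log2 ratio of Micu2 to Mcu, gatekeeper to pore, was -0.44, -0.57 and -0.37 in Calr KO wells and -0.61, -0.44 and -0.71 in control libraries. For Smdt1 to Mcu it was -0.22, -0.40 and -0.22 in Calr KO wells and -0.42, -0.40 and -0.39 in control libraries. Both ratios were higher on average in Calr KO, by 0.13 and 0.12, with overlapping groups. With a library left out, the first difference ran from 0.066 (control replicate 3) to 0.20 (control replicate 2) and the second from 0.091 (Calr KO replicate 3) to 0.18 (Calr KO replicate 2). Letm1 to Mcu differed by 0.26 (0.55 ± 0.11 in Calr KO wells and 0.29 ± 0.20 in control wells, SD, n = 3), the largest of the 6 ratios examined, and by 0.15 without control replicate 1. The ratio of Slc8b1 to Mcu, exchanger gene to pore gene, was -0.94 ± 0.17 in Calr KO wells and -0.92 ± 0.070 in control wells. The difference was -0.029, and its sign turns to 0.055 without Calr KO replicate 2. Vdac1 to Vdac2 was 1.02 ± 0.053 in Calr KO wells and 1.11 ± 0.062 in control wells (difference -0.089, and -0.060 without control replicate 1), and Vdac3 to Vdac2 -0.58 ± 0.090 and -0.56 ± 0.011 (difference -0.025, and 0.027 without Calr KO replicate 3). In 0 of the 6 ratios were the groups apart. A two-sided exact permutation test over libraries gave p values from 0.2 to 1, with a lowest adjusted p of 0.3 over the 6 ratios, and 0.1 is the smallest p that 3 libraries against 3 allow.

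**Figure D5:**
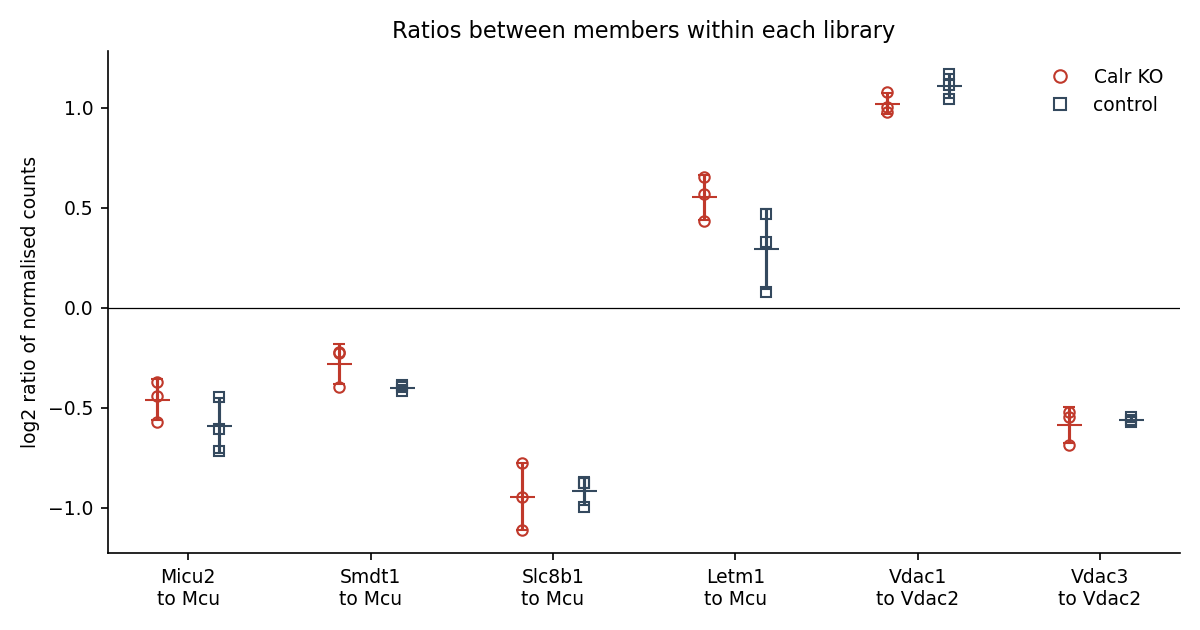
Log2 ratios of normalised counts between pairs of the 8 genes, 1 open symbol a library, Calr KO circles left of control squares, with mean and SD bars (n = 3). In each of the 6 pairs the groups overlap, and the widest gap between means is 0.26, for Letm1 to Mcu.

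Other genes of the uniporter complex also gave no calls. Of 4 subunits and regulators examined 0 passed the test over all genes and 0 had an unadjusted p under 0.05 (limma), with a median log2 change of -0.021. Mcur1, a uniporter regulator, differed on the log2 scale by -0.058, and Slc25a23, a calcium-binding ATP-Mg carrier, by 0.015. Mcub, the paralogue that damps the pore, had 298 ± 16.8 normalised counts in Calr KO wells and 264 ± 23.1 in control wells (SD, n = 3, log2 change 0.17, limma adjusted p = 0.68). Micu3, a MICU paralogue named after its values were seen, had 113 ± 10.2 in Calr KO wells and 122 ± 11.0 in control wells.

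Genes that process EMRE or keep the inner membrane in order numbered 6, and 0 passed (limma, with 1 at an unadjusted p under 0.05). Their median log2 change was 0.0086. Phb2, a prohibitin, was higher in every Calr KO library (1896 ± 58.1 against 1715 ± 88.6 in control wells, SD, n = 3) with a limma adjusted p of 0.47. Phb had a log2 change of 0.011. Afg3l2, a subunit of the protease that degrades unassembled EMRE, had a log2 change of -0.058 and was lower in every Calr KO library. The groups did not overlap in these 2 of the 6 genes, Phb2 and Afg3l2, against 14.8% of all tested genes.

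Among the 8 other cation exchange genes of the matrix and inner membrane, 5 passed the filter on low values and 0 of them passed the test (limma, with 1 at an unadjusted p under 0.05). Ghitm, the gene of the inner membrane exchanger TMBIM5, had 3353 ± 211 normalised counts in Calr KO wells and 3444 ± 127 in control wells (SD, n = 3). Letmd1, an inner membrane protein with a LETM1-like domain, had 200, 199 and 190 normalised counts in Calr KO wells and 240, 326 and 269 in control libraries. No Calr KO library reached a control library (log2 change -0.49, 95% interval -0.77 to -0.21, limma adjusted p = 0.27). Ucp2 had 100 ± 18.3 in Calr KO wells and 94.6 ± 29.4 in control wells. Letm2 and Slc8a3 were the other tested members. Both had log2 changes above 0 that were at least as large in size as that of Letmd1. The highest change of the list, 0.81, was in 1 of them, and neither had an unadjusted p under 0.05 (limma). Over the list the changes lay between -0.49 and 0.81, with a median of 0.11. Without regard to sign their median size was 0.49. The groups did not overlap in 2 of the 5 genes, against 14.8% of all tested genes. The genes that did not pass the filter, Ucp3, Slc8a1 and Slc8a2, had at most 14.8 normalised counts in any library.

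Contact sites between the ER and mitochondria were covered by 16 tested genes of 17, and 0 passed (limma, with 3 at an unadjusted p under 0.05); Tespa1 was listed at 0. Over all tested genes, the share below that unadjusted limma threshold was 8.88%. The median log2 change was 0.013. Hspa9, the GRP75 chaperone that links VDAC1 to IP3 receptors, had 8416 ± 173 normalised counts in Calr KO wells and 8164 ± 24.8 in control wells (SD, n = 3, log2 change 0.044, limma adjusted p = 0.71). Itpr3, the most abundant IP3 receptor gene by count, differed on the log2 scale by -0.063 and Tmx1 by -0.034. The following 3 were named after their values were seen. Mfn1, a mitofusin of the outer membrane, had 1051, 1000 and 963 normalised counts in Calr KO wells and 1400, 1206 and 1280 in control libraries. The groups were well apart (log2 change -0.36, 95% interval -0.52 to -0.21), and the limma adjusted p was 0.10. Itpr2 differed on the log2 scale by 0.28 and Vapb, an ER tether, by 0.17, with limma adjusted p values of 0.49 and 0.47. Hspa9, Mfn1 and Itpr2 were among 4 of the 16 genes whose groups did not overlap, against 14.8% of all tested genes.

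The partners of VDAC and the genes of the permeability transition held 9 tested genes of 10, with 0 passing and 0 at an unadjusted p under 0.05 (limma) and a median log2 change of -0.036. The adenine nucleotide carriers Slc25a5 and Slc25a4 and the phosphate carrier Slc25a3 differed on the log2 scale by -0.036, 0.0025 and 0.018. Slc25a5 was lower in every Calr KO library. It was among 3 of the 9 genes whose groups did not overlap, against 14.8% of all tested genes. The sign of Slc25a4 flips when libraries are scaled to equal upper quartiles or medians. Of 14 calcium-responsive enzymes and carriers of the matrix 0 passed and 0 had an unadjusted p under 0.05 (limma). Their median log2 change was -0.021, with Ogdh, the calcium-activated oxoglutarate dehydrogenase, at -0.047, Pdha1 of pyruvate dehydrogenase at -0.013 and the carrier Slc25a24 at -0.0022.

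Markers of mitochondrial amount gave 0 calls in 12 tested genes of 14 (limma, 0 at an unadjusted p under 0.05), with a median log2 change of 0.013. The matrix chaperonin Hspd1 had 17763 ± 238 normalised counts in Calr KO wells and 17344 ± 210 in control wells (SD, n = 3), and citrate synthase, Cs, 7896 ± 120 in Calr KO wells and 7946 ± 132 in control wells. Over these 7 lists of nuclear genes, 66 genes were tested, 0 passed (limma), and 7.58% had an unadjusted p under 0.05, against 8.88% of all tested genes. Of the 13 mitochondrially encoded transcripts 0 passed (limma), but 8 had an unadjusted p under 0.05, with a median log2 change of 0.083. The groups did not overlap in 7 of the 13, against 14.8% of all tested genes. Of these transcripts mt-Co1, mt-Cytb and mt-Nd4, the most abundant, differed on the log2 scale by 0.041, 0.11 and 0.081. The largest difference, named after the values were seen, was in mt-Nd3, a complex I subunit, with 1206, 1076 and 1359 normalised counts in Calr KO wells and 530, 726 and 1000 in control libraries (log2 change 0.73, limma adjusted p = 0.29). The share of counts on the mitochondrial genome was 2.89%, 2.90% and 2.97% in Calr KO wells and 2.80%, 2.78% and 2.78% in control libraries, higher in every Calr KO library. Its part in the values of the 8 genes was not tested.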

How the data were processed

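For each library the authors deposited a signal by gene symbol, which the labels call counts normalised with DESeq2. Per the submitters' processing notes, the tools were DESeq2 1.34.0, Salmon 0.14.1 and STAR 2.6.1d and the genome build mm10, with no role or order given; the annotation release and the use of strand are not given in the sources used here. Total RNA went into a SMARTER mRNA library kit, per the labels' protocols. The most frequent low value was taken as the worth of 1 read and gives an estimated 13571210 to 14918661 reads a library. Of values of 100 to 1000 reads, 3.44% to 4.31% were whole within 0.02, so the reads behind each value cannot be restored and a count model was not used. Counting errors cover counting only.

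Genes with a mean of at least 10 over the 6 libraries (13199 of 55291) entered a two-sided limma test (limma 3.58.1, R 4.3.3) on the log2 scale after adding a pseudocount of 1, with the prior variance as a trend on mean level. Fold changes on this scale understate those of low genes. The program was checked on simulated data. Ratios within a library were tested with SciPy 1.17.1 by a two-sided exact permutation test. Gene models, lengths and coordinates are from GENCODE M21 (GRCm38, the assembly of mm10), and promoters from RefSeq (GRCm38.p6).

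The members and lists were chosen with earlier results of these data known, and 1 gene of the lists is not reported here. Named were all 8 members, Calr, up to 6 passing genes and the 3 of highest mean in each list, and the 3 nearest profiles to Mcu and Vdac1. Hspa5, Hsp90b1 and Pdia4 are shown for scale and were chosen with their values known. Alternatives were other pseudocounts, filters, scalings and variance priors, a replicate block, and leaving out each library. Same-numbered libraries did not deviate together (correlations of -0.056, -0.011 and 0.0014 over genes), so the numbers were not taken as pairs.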

Additional observations from a re-analysis of the deposited data

How the results depend on the processing

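Over 16 alternatives 0 of the 8 mitochondrial calcium genes and 0 genes of the related lists passed, with a lowest adjusted p of 0.51 for a member (limma). Of all tested genes 37 passed, 26 with the replicate block, 2 with 1 variance prior for all genes, and between 20 and 34 with a library left out (20 when Calr KO replicate 1 was omitted, 21 for Calr KO replicate 3, and 22 for control replicate 2 or 3). The block changed no call of a member. Of the 8 genes 6 kept the sign of their log2 change throughout. Vdac3 was at -0.00040 with equal upper quartiles and between -0.014 and 0.039 with a library left out, and Micu2 between -0.0077 and 0.14. The members' median then ranged from 0.0051 to 0.026, the ratio of Slc8b1 to Mcu from -0.11 to 0.055 and that of Vdac3 to Vdac2 from -0.058 to 0.027.

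Related genes near 0 also changed sign with a library left out. These were Slc25a23 (-0.022 to 0.078), Mcur1 (-0.18 to 0.017), Phb (-0.032 to 0.044), Ghitm (-0.088 to 0.0019), Ucp2 (-0.13 to 0.33), Slc25a24 (-0.038 to 0.041), Pdha1 (-0.038 to 0.012), Cs (-0.021 to 0.0032) and Slc25a4 (-0.027 to 0.030). Slc25a4 was at -0.0081 with equal upper quartiles and -0.0020 with equal medians. Scaling moved the median of all genes by at most 0.011. The cause of these changes was not tested. The 95% intervals rest on 3 wells a group that share a population. They do not cover the spread between independent knockouts.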

Other observations

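Tomm20, a receptor of the outer membrane import channel and 1 of the markers of mitochondrial amount, varied far more than its neighbours. It had 3726, 2594 and 2191 normalised counts in Calr KO and 2364, 3950 and 4137 in control libraries. High and low libraries occurred in both groups, and the spread within groups was 29.2% where counting error was 1.77%, against a spread of 1.59% for Cs. Its log2 change was -0.29 (95% interval -0.80 to 0.23, limma adjusted p = 0.77) and ranged from -0.55 to -0.12 with a library left out.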
